A study of Mus musculus with 4 samples.

Results

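Ceramide is the hub of sphingolipid metabolism and is built from palmitoyl-CoA and serine in the endoplasmic reticulum. Serine palmitoyltransferase opens the pathway, a reductase, ceramide synthases and a desaturase complete ceramide, and ceramide then receives a headgroup to become sphingomyelin or glucosylceramide, or is cleaved by ceramidases to sphingosine, which kinases turn into the signalling lipid sphingosine 1-phosphate. In skeletal muscle, ceramide is known as a lipid that accumulates under saturated fatty acids and dampens insulin signalling. The genes described here are 34 genes of this pathway, chosen by function and set out in 4 steps of de novo synthesis (12 genes), sphingomyelin and other headgroups (6), breakdown (8) and signalling (8), out of 19751 named genes on the array. Of the 34, 33 had a probe bright enough to test, out of 13666 such genes in all.

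The study exposed C2C12 myoblasts, an established mouse line derived from satellite cells of thigh muscle, to 0.1 mmol/l palmitate for 48 h and compared them with untreated C2C12 cultures on their 3rd day of proliferation. The question was how a saturated fatty acid alters the transcriptome of proliferating myoblasts. Each of 4 two-colour arrays carried RNA of 1 palmitate-treated culture in the red dye Cy5 and of 1 control culture in the green dye Cy3, and the labels call the 4 arrays biological replicates of this 1 line. The protocol gives 5% fetal bovine serum to both media and the same ethanol and fatty acid-free albumin to the control medium, whereas the label of the control RNA names 10% HS. All values below are normalized log2 ratios of palmitate over control, in which 1 stands for a 2-fold higher signal in palmitate-treated myoblasts, or normalized log2 signals where that is stated. Because palmitate was always in Cy5, dye and treatment cannot be told apart.

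Between 61.9% and 70.7% of probes were well above background in the palmitate channel and between 57.5% and 64.0% in the control channel. The arrays did not all run the same way. Over the 24055 tested probes, replicates 2, 3 and 4 correlated with each other at r = 0.68 to 0.77, whereas replicate 1 correlated with them at r = 0.06, -0.16 and -0.16, and the members' calls are therefore given with and without it. Of the 4 fatty acid response genes, Angptl4 averaged 1.48 ± 0.24, Cpt1a 1.27 ± 0.19, Plin2 0.61 ± 0.33 and Pdk4 0.20 ± 0.26 (SD, n = 4). In replicate 1 Angptl4 was at 1.27, Cpt1a at 1.35 and Plin2 at 0.95, while Pdk4 was at -0.11. The reference gene Rpl13a averaged -0.02 ± 0.12. All 8 myoblast markers were tested, with a median of 0.09, while 4 of 6 adipocyte markers and 2 of 5 endothelial markers never stood above background. Of the myotube markers 6 of 8 were tested, with a median of 0.16, and of the leukocyte markers 3 of 5 on the array, with a median of -0.04. Of these 5 leukocyte markers 0 stayed at background in every culture, and Itgam had a mean log2 intensity of 14.89. What the leukocyte probes measure in this line was not tested. The 2 tested endothelial markers had a median of -0.37, and of these Kdr averaged -0.59 ± 1.06, with replicate 1 at 0.98 and a mean of -1.11 without it (limma adjusted p = 0.0028 there). At an unadjusted limma p under 0.05, 2 of the 8 myoblast and 2 of the 6 myotube markers were higher in the palmitate culture, and none of the others over 4 arrays. Of all tested genes 10.8% were higher at that p. The part of these markers in the results below was not tested.

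Over 4 arrays none of the 33 genes passed limma's adjusted p of 0.05, and neither did any of the 24055 probes (0%), of which the lowest adjusted p was 0.108. At an unadjusted limma p under 0.05 there were 2 members higher and 5 lower in palmitate-treated myoblasts, or 21.2% of the 33, against 24.1% of all tested genes (10.8% higher and 13.3% lower). The share among the sphingolipid genes was thus near that of the whole array. The genes with the largest shift were Ugcg and Sgms1, the enzymes that place glucose or phosphocholine on ceramide, both lower in the palmitate culture on every array. In bulk RNA of this kind, fewer cells that express a gene and less of its RNA per cell cannot be told apart. They were the only members whose mean reached the study's 1.6-fold limit, which 2.45% of all genes reached. The medians of the 4 steps were -0.03 for de novo synthesis, -0.15 for sphingomyelin, 0.06 for breakdown and -0.04 for signalling, beside 0.0016 for all tested genes.

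**Figure D1:**
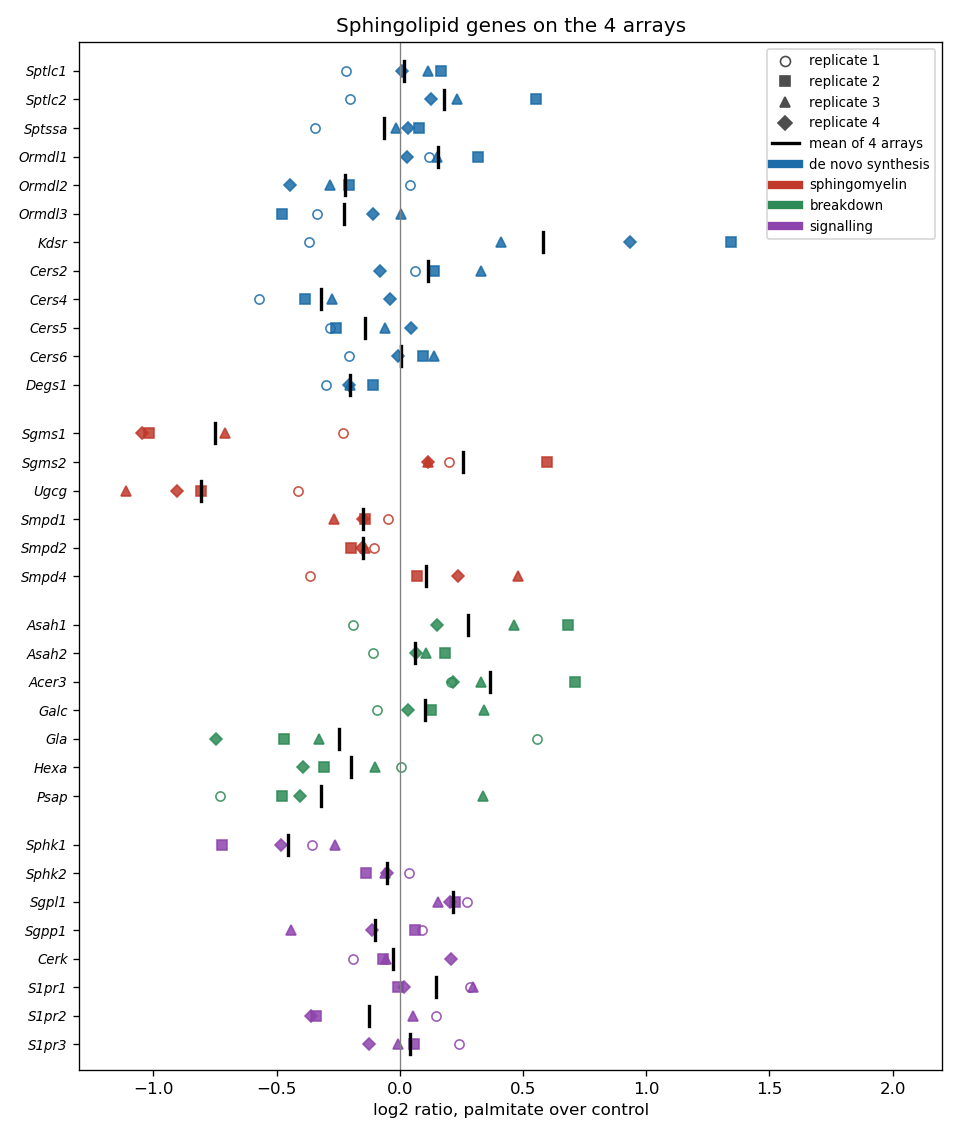
The 33 tested sphingolipid genes (rows, coloured by step) by their log2 ratio, palmitate over control (x axis), with 1 marker for each of the 4 arrays and a black bar for their mean. Ugcg and Sgms1 lie furthest left with means of -0.81 and -0.75, and Kdsr lies furthest right with a mean of 0.58 and its replicate 1 at -0.37.

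The promoters of Ugcg, Sgms1 and Kdsr, the members with the 3 largest mean shifts, are shown because these genes carry most of what follows. Each window spans 300 bases around a transcription start in RefSeq (build GRCm38.p6), most of them before it, and capitals mark the GC box, GGGCGG on either strand.
Ugcg, chr4:59189300-59189599, plus strand: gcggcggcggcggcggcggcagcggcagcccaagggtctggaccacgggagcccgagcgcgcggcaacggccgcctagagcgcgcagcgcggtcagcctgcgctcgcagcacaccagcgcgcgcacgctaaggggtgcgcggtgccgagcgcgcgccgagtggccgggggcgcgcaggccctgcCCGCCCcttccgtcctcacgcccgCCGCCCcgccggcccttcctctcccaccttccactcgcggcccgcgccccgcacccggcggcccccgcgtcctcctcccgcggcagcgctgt
Sgms1, chr19:32388463-32388762, minus strand, the first of 4 listed starts: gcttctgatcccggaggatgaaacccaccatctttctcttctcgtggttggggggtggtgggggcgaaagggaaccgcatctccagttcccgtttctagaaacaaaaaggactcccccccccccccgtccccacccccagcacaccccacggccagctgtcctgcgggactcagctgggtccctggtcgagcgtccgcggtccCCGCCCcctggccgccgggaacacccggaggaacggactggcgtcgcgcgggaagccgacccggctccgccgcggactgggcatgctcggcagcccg
Kdsr, chr1:106759693-106759992, minus strand: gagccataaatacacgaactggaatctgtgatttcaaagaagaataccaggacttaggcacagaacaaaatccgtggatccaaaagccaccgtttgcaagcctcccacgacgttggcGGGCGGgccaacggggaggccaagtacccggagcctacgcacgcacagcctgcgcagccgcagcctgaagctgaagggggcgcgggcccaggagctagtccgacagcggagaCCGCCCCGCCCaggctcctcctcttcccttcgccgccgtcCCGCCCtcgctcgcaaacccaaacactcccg
The Ugcg window held 2 GC boxes in 81.3% G and C, the Sgms1 window held 1 in 69.3%, and the Kdsr window held 4 in 62.7%, of which a pair overlaps by 1 base. A search on both strands found neither a TATA box (TATAAA) nor a CCAAT box (spelled as its name) in any of the 3 windows. The reference listed 48 promoters for 32 of the 34 genes, of which 30 (62.5%) held a GC box, against 35.66% of all 32851 listed promoters. For the TATA box the counts were 2 of 48 (4.17%) against 13.62%, and for the CCAAT box 18 of 48 (37.5%) against 37.41%. Such matches describe the letters of these windows, and several windows belong to 1 gene. The list of all promoters was not limited to tested genes, whereas nearly all members were tested. No share was taken over the promoters of tested genes alone.

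The genes of de novo synthesis lay on both sides of 0, with 6 means above it and 6 below. Serine palmitoyltransferase, the entry enzyme, gave small values: Sptlc1, its shared subunit, averaged 0.02 ± 0.17 (SD, n = 4, as for each mean below) and the small regulatory subunit Sptssa averaged -0.06 ± 0.19. Sptlc2, the catalytic partner, had ratios of -0.20, 0.55, 0.23 and 0.13 in replicates 1 to 4. Its replicate 1 was the only array below 0, and the limma adjusted p was 0.45 over 4 arrays and 0.099 without replicate 1, where the mean was 0.30. The median of this step was -0.25 on replicate 1 and 0.09, 0.06 and 0.0013 on the other arrays.

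The ORMDL proteins restrain serine palmitoyltransferase, and their 3 genes did not move alike. Ormdl1 averaged 0.15 ± 0.12 and was above 0 on all 4 arrays. Ormdl3 averaged -0.23 ± 0.22, with 3 of 4 arrays below 0. For Ormdl2 the sign depended on the probe, since the brighter probe averaged -0.22 ± 0.20 and the other probe 0.34 ± 0.38 with all 4 arrays above 0, so no direction is given for it.

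Kdsr, the reductase that acts on the first sphingoid base, showed the widest spread of all members. Its log2 signal was 10.96, 12.25, 11.88 and 11.97 in palmitate-treated myoblasts, against 11.33, 10.91, 11.48 and 11.04 in control myoblasts of replicates 1 to 4. The palmitate culture was brighter in replicates 2 to 4 and dimmer in replicate 1, so the cultures overlapped. The mean ratio was 0.58 ± 0.74 with a limma adjusted p of 0.26. Without replicate 1 it was 0.90 with an adjusted p of 0.017.

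Among the ceramide synthases, which attach acyl chains of differing length, Cers4 was the one at an unadjusted p under 0.05. Normalized log2 signals were 8.41, 8.59, 8.53 and 8.79 in palmitate-treated myoblasts and 8.98, 8.98, 8.80 and 8.83 in control myoblasts. The lowest control culture and the highest palmitate culture were 8.80 and 8.79, so the cultures separated by a narrow margin. The mean ratio was -0.32 ± 0.22 (limma adjusted p = 0.17). Without replicate 1, its lowest array, the mean was -0.23, and the unadjusted limma p rose from 0.022 to 0.055. Cers5 averaged -0.14 ± 0.16 and Cers2 0.11 ± 0.17, and Cers6 averaged 0.0043 ± 0.15 with arrays on both sides of 0. The Cers6 spots were dim (mean log2 intensity 7.65). Its mean was -0.17 with the processed signals and -0.21 with arrays centred on the median.

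Degs1, the desaturase that turns dihydroceramide into ceramide, was lower on every array by a small and even amount. Its ratios were -0.30, -0.11, -0.20 and -0.21, with a mean of -0.20 ± 0.08 (limma adjusted p = 0.20). The unadjusted limma p was 0.037 over 4 arrays and 0.089 without replicate 1, where the mean was -0.17. On the log2 scale its signal was 13.45, 13.76, 13.63 and 13.56 in palmitate-treated myoblasts, against 13.75, 13.86, 13.84 and 13.77 in control myoblasts, so only the palmitate culture of replicate 2 reached into the range of the controls.

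The lowest values of the module lay in the step that gives ceramide its headgroup. Ugcg makes glucosylceramide, the root of the glycosphingolipids. Its log2 signal was 13.72, 13.28, 12.99 and 12.99 in palmitate-treated myoblasts, against 14.13, 14.08, 14.10 and 13.89 in control myoblasts. Every palmitate culture lay below every control culture, and the controls stood close together. The ratios were -0.41, -0.81, -1.11 and -0.90, with a mean of -0.81 ± 0.29 (limma SE 0.12, limma adjusted p = 0.12). The limma SE uses a variance drawn toward that of all tested probes, so it cannot be had from the SD alone.

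Sgms1, the Golgi sphingomyelin synthase, followed with a mean of -0.75 ± 0.38 (limma SE 0.15, limma adjusted p = 0.12). The normalized log2 signal was 12.06, 11.24, 11.62 and 11.16 in palmitate-treated myoblasts, against 12.29, 12.25, 12.32 and 12.20 in control myoblasts. The cultures did not overlap, and the palmitate culture of replicate 1 was the one nearest to the controls. Without replicate 1 the mean was -0.94 for Ugcg and -0.92 for Sgms1, and the adjusted p was 0.0036 for Ugcg and 0.0044 for Sgms1. Leaving out replicate 2, 3 or 4 instead gave both genes adjusted p-values of 0.31 to 0.44.

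Sgms2, the sphingomyelin synthase found also at the plasma membrane, had the opposite sign to Sgms1 on every array. Its ratios were 0.20, 0.60, 0.11 and 0.11, with a mean of 0.26 ± 0.23 (limma adjusted p = 0.23). The difference between both genes was not tested. The sphingomyelinases, which return sphingomyelin to ceramide, gave smaller values: the acid enzyme Smpd1 averaged -0.15 ± 0.09 and the neutral enzyme Smpd2 -0.15 ± 0.04, each below 0 on all 4 arrays, and the neutral enzyme Smpd4 averaged 0.11 ± 0.35 with replicate 1 below 0. Smpd2 had the most even ratios of all members.

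**Figure D2:**
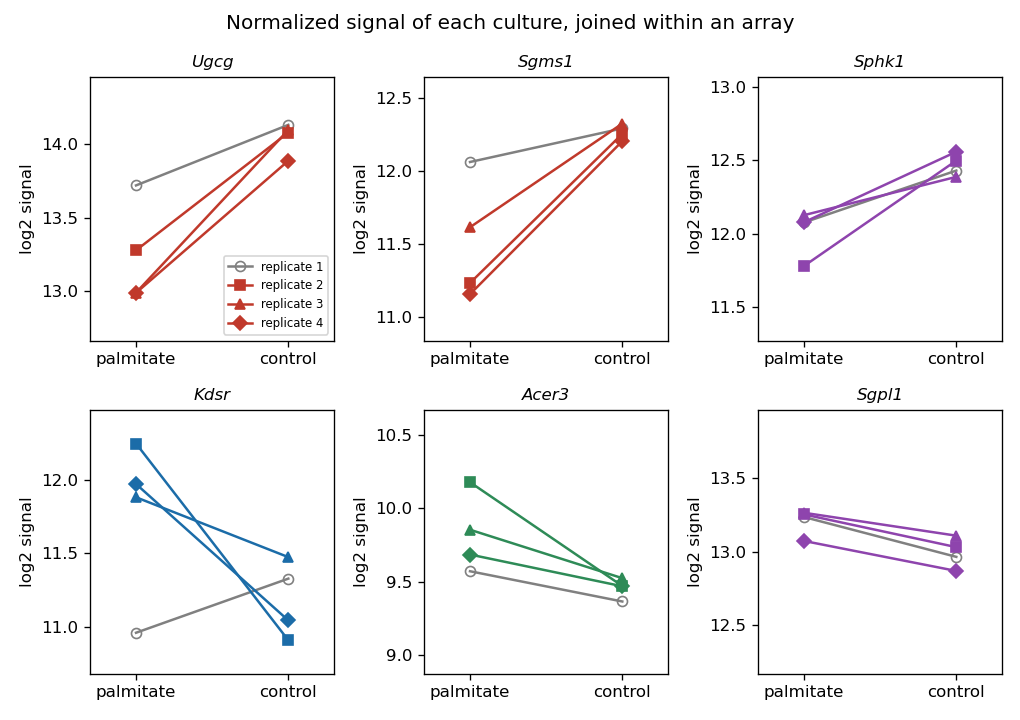
Normalized log2 signal (y axis) of Ugcg, Sgms1, Sphk1, Kdsr, Acer3 and Sgpl1 in the 4 palmitate-treated and the 4 control cultures, with a line joining the cultures of 1 array. For Ugcg, Sgms1 and Sphk1 every palmitate culture lies below every control culture, and for Kdsr the line of replicate 1 runs against the other 3.

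The breakdown step had no settled direction. Its median of 0.06 was -0.12 with arrays centred on the median in place of loess, and -0.07 over the genes above background in both channels, which leaves out Galc. The ceramidases split ceramide into sphingosine and a fatty acid, and the one at an unadjusted p under 0.05 was Acer3, the alkaline ceramidase of the endoplasmic reticulum and Golgi. Signals on the log2 scale were 9.57, 10.18, 9.85 and 9.69 in palmitate-treated myoblasts, against 9.36, 9.47, 9.52 and 9.47 in control myoblasts. Every palmitate culture lay above every control culture. The ratio averaged 0.37 ± 0.24 (limma adjusted p = 0.15), and without replicate 1 it was 0.42 with an adjusted p of 0.051.

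Asah1, the lysosomal acid ceramidase, had ratios of -0.19, 0.68, 0.46 and 0.15. Replicate 1 was again the only array below 0, and the adjusted p was 0.32 over 4 arrays and 0.049 without replicate 1, where the mean was 0.43. A second Asah1 probe averaged 0.42 ± 0.50 and 0.65 without replicate 1, with an adjusted p of 0.016 there. Asah2, the neutral ceramidase, had dim spots (mean log2 intensity 7.66). It averaged 0.06 ± 0.12, but 0.30 with the processed signals and -0.15 with arrays centred on the median. For Acer2, the Golgi alkaline ceramidase, no probe could be tested. Its brighter probe stood above background in 3 palmitate cultures and 0 control cultures, and its other probe in 0 of either.

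The lysosomal genes that trim sugars from glycosphingolipids had no common direction. Gla, the alpha-galactosidase deficient in human Fabry disease, had ratios of 0.56, -0.47, -0.33 and -0.75, with a mean of -0.25 ± 0.56. Its replicate 1 lay far above 0 and the other 3 below, and without replicate 1 the mean was -0.52 with an adjusted p of 0.023. The Gla spots were brighter than 99.4% of tested probes, and with each array centred on its median in place of the intensity-dependent loess curve the mean was -0.0093. Mfsd2b, a sphingosine 1-phosphate exporter that is no member, had spots of like brightness and a like pattern, with ratios of 0.55, -0.70, -0.38 and -0.89, a mean of -0.36 ± 0.64 and a mean of -0.66 without replicate 1 (limma adjusted p = 0.014 there). Kdr, an endothelial marker with dimmer spots (mean log2 intensity 10.97, against 17.27 for Gla), had ratios of 0.98, -1.33, -1.09 and -0.93. The part of spot brightness in these values was not tested.

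Of the other lysosomal genes, Galc, which cleaves galactosylceramide, averaged 0.10 ± 0.18 and -0.21 with arrays centred on the median, and stood above background in all 4 palmitate cultures but in 2 control cultures. Hexa, the alpha subunit of beta-hexosaminidase, averaged -0.20 ± 0.18 and was lower on 3 of 4 arrays. Psap, the precursor of the saposins that present lipids to these enzymes, averaged -0.32 ± 0.46 with replicate 3 above 0.

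In signalling the lowest member was Sphk1, the kinase that makes sphingosine 1-phosphate. Its log2 signal was 12.08, 11.78, 12.13 and 12.08 in palmitate-treated myoblasts, against 12.43, 12.50, 12.39 and 12.56 in control myoblasts. The cultures did not overlap and all 4 arrays were below 0. The ratio averaged -0.45 ± 0.20 (limma SE 0.10, limma adjusted p = 0.12), and without replicate 1 it was -0.49 with an adjusted p of 0.029. A second Sphk1 probe averaged -0.31 ± 0.21. Sphk2, the other kinase, averaged -0.05 ± 0.07.

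Sgpl1, the lyase that degrades sphingosine 1-phosphate irreversibly, was higher on every array by an even amount. Its ratios were 0.27, 0.22, 0.16 and 0.20, with a mean of 0.21 ± 0.05 (limma adjusted p = 0.18). The unadjusted limma p was 0.026 over 4 arrays and 0.058 without replicate 1, where the mean was 0.20. Signals were, on the log2 scale, 13.24, 13.25, 13.27 and 13.07 in palmitate-treated myoblasts, against 12.96, 13.03, 13.11 and 12.87 in control myoblasts, so only replicate 4 of the palmitate cultures reached into the range of the controls. Replicate 1, which set the widest spread in Kdsr and Gla, stood with the other arrays here.

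The remaining signalling genes were spread around 0. Sgpp1, a phosphatase that returns sphingosine 1-phosphate to sphingosine, averaged -0.10 ± 0.24, with replicate 3 at -0.44. Cerk, the ceramide kinase, averaged -0.03 ± 0.17 by its brighter probe and 0.05 ± 0.11 by the other, so its sign depended on the probe. The receptors S1pr1, S1pr2 and S1pr3 averaged 0.15 ± 0.17, -0.12 ± 0.26 and 0.04 ± 0.15, each with arrays on both sides of 0.

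Counted over all 33 tested genes, 4 were above 0 on every array (12.1%) and 7 below 0 on every array (21.2%), against 15.7% and 16.8% of all tested genes. The 4 were Ormdl1, Sgms2, Acer3 and Sgpl1. The 7 were Cers4, Degs1, Sgms1, Ugcg, Smpd1, Smpd2 and Sphk1. The log2 signals of palmitate-treated and control cultures did not overlap for 1 gene that was higher, Acer3, and for 5 that were lower, namely Ugcg, Sgms1, Sphk1, Cers4 and Smpd1. For Smpd1 the margin was as narrow as for Cers4. Its highest palmitate culture was at 13.02 and its lowest control culture at 13.03, with an unadjusted limma p of 0.0998. Over all tested genes 5.38% were apart in the higher and 8.4% in the lower direction. An exact sign-flip test of a single gene over 4 arrays cannot go below a two-sided p of 0.125.

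Replicate 1 bore on the members as it did on the whole array. Across the 33 genes its ratios correlated with the mean of replicates 2 to 4 at r = 0.09, and over all tested probes at r = -0.08, both given as descriptions over genes that share the 4 arrays. Without replicate 1, Kdsr and Asah1 were higher and Ugcg, Sgms1, Sphk1 and Gla lower at a limma adjusted p of 0.05. That is 6.06% of the 33 genes higher and 12.1% lower, against 8.68% and 9.8% of all tested genes. For Kdsr, Asah1 and Gla the call rests on leaving out an array that pointed the other way, while for Ugcg, Sgms1 and Sphk1 the array left out had the same sign. The typical spread of a member over the 4 arrays, a median SD of 0.19, was close to the 0.20 of all tested genes.

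**Figure D3:**
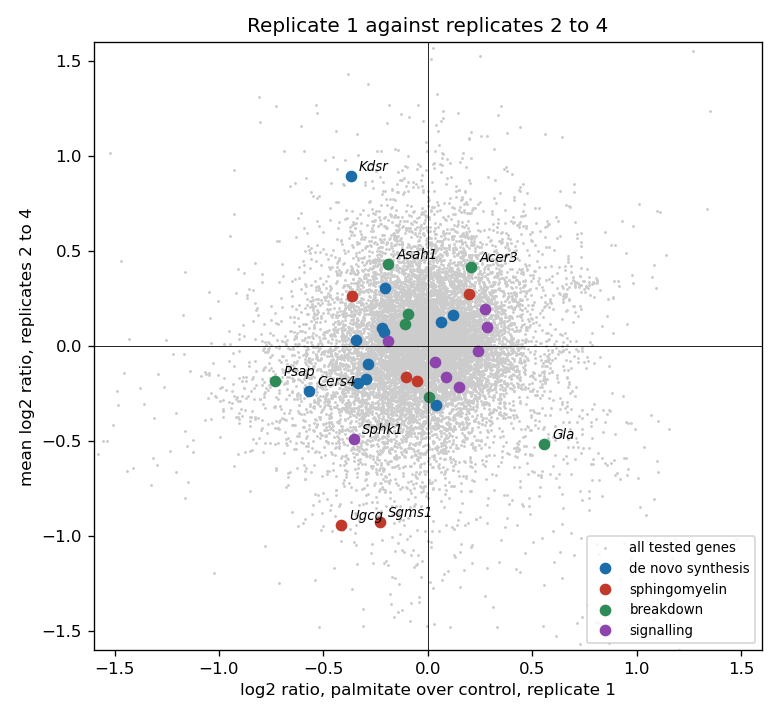
Log2 ratio of palmitate over control in replicate 1 (x axis) against the mean of replicates 2 to 4 (y axis) for the 33 sphingolipid genes, coloured by step, with all tested genes in grey. Kdsr (-0.37 in replicate 1, 0.90 in the others) and Gla (0.56 and -0.52) lie in quadrants of opposite sign, and Ugcg, Sgms1 and Sphk1 in the quadrant where both are below 0.

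A further 50 sphingolipid genes, listed by function to complete the pathway, gave 36 that could be tested. At an unadjusted limma p under 0.05, 6 were higher and 8 lower in palmitate-treated myoblasts (38.9% of 36, against 24.1% of all tested genes), and none passed the adjusted p of 0.05. In synthesis and transfer 0 were higher and 3 lower of 10, in glycosphingolipid synthesis 2 and 2 of 8, in breakdown 2 and 1 of 11, and among sphingosine 1-phosphate genes 2 and 2 of 7. The lowest was Tecr, a reductase that acts in very long chain fatty acid elongation and in the disposal of sphingosine 1-phosphate, below 0 on all 4 arrays with a mean of -0.66 ± 0.43 (limma adjusted p = 0.13). Samd8, a relative of the sphingomyelin synthases, averaged -0.33 ± 0.22, and the elongase Elovl1 -0.31 ± 0.19. Among the genes of glycosphingolipids, B4galnt1, which makes complex gangliosides, averaged -0.33 ± 0.33, and A4galt, which makes globotriaosylceramide, the lipid that Gla breaks down, averaged 0.47 ± 0.49. The non-lysosomal glucosylceramidase Gba2 averaged -0.39 ± 0.30, and the lipid phosphatase Plpp2 averaged -0.36 ± 0.21. Each of these 7 genes had the same sign on all 4 arrays, by which they were selected, and adjusted p-values of 0.13 to 0.23.

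The values of the 8 members with the lowest p or the widest shift kept their sign under every alternative processing that was run. These 8 were picked by the same values, and all but Kdsr had 1 sign on all 4 arrays. For those, leaving out an array could not change the sign. Changes of the test, the pairing or the filter left the mean as it was. The adjusted p was less steady than the sign. With arrays centred on the median, the limma adjusted p was 0.50 for Acer3, 0.53 for Sphk1 and 0.60 for Cers4. For Sgpl1 it was 0.65, and for Degs1 it was 0.88 with a mean of -0.11. For Ugcg it was 0.077, for Sgms1 0.10 and for Kdsr 0.15. Ugcg lay between -0.94 without replicate 1 and -0.71 without replicate 3, Sgms1 between -0.92 without replicate 1 and -0.65 without replicate 4, and Sphk1 between -0.52 and -0.37. Kdsr lay between 0.32 without replicate 2 and 0.90 without replicate 1, so its size rests on single arrays more than that of Ugcg.

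**Figure D4:**
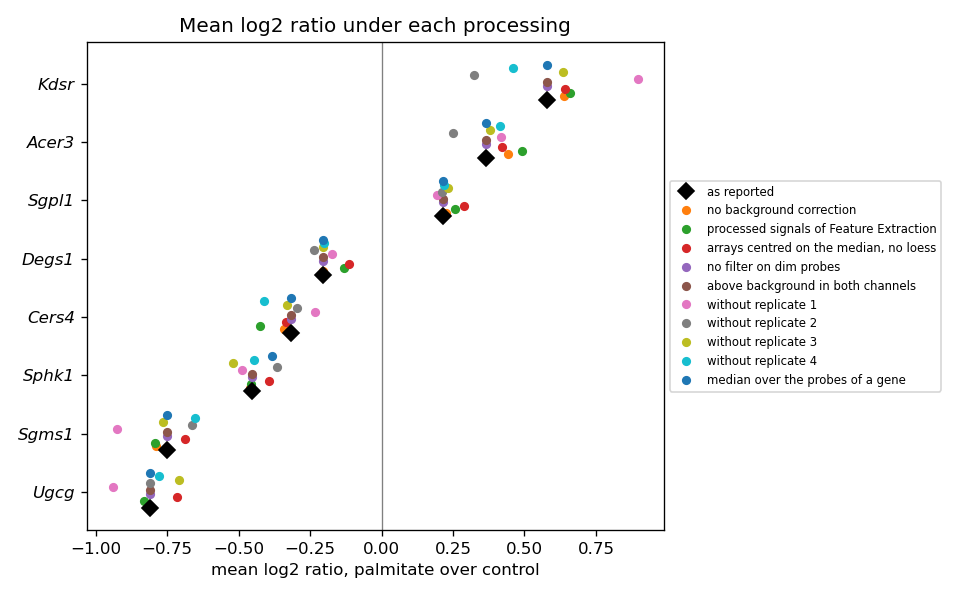
Rows are 8 sphingolipid genes and the x axis gives their mean log2 ratio, palmitate over control, as reported (black diamond) and under each alternative background correction, normalization, probe choice and left-out array (coloured points). Every gene stays on its side of 0, with Kdsr spread from 0.32 to 0.90 and Sgpl1 within the narrowest band. For every gene but Kdsr, leaving out an array could not change the sign.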

How the data were processed

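Total RNA of palmitate-treated and control C2C12 myoblasts was hybridised by the authors to 4 two-colour Agilent arrays, which were scanned on 1 slide and read with Agilent Feature Extraction 10.7.3.1. The deposited files hold spot and background intensity in each channel, not yet normalized. A table of log2 ratios that the authors deposited as well had column medians of -0.0715, -0.124, -0.101 and -0.164 and differed from the log2 ratio of the scanner's processed signals by at most 3.0e-06 over 39030 probes, so its scale and direction are known, and it was not used further. Per the file headers the array design was annotated on mouse build mm9, and no coordinate of a probe was used.

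Median spot intensities were corrected with normexp (offset 50) and normalized within each array by loess, with control and outlier spots left out of the curve, and spots of a probe were averaged. Palmitate and control signals were read after Aquantile scaling of the average intensity. A probe entered the test if, in the palmitate or the control channel, every one of the 4 arrays showed it well above background. The log2 ratios were tested against 0 in limma 3.58.1 (R 4.3.3), two-sided, with Benjamini-Hochberg adjustment over all 24055 tested probes, and the scripts were tested on simulated data. The labels say the cultures are biological replicates, and p-values measure the spread between these 4 arrays. The number of arrays limits the precision. One setting at a time was changed: background correction, use of the processed signals, normalization, filter on dim probes, variance model, pairing, the methods' t-test, their 50% cap on the coefficient of variation, the probe that stands for a gene, and leaving out each array.

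All 34 genes are named, each by its brightest tested probe, with other probes where they differ in sign. Of the further sphingolipid genes, those with an unadjusted p under 0.05 and 1 sign on all 4 arrays are named, at most the 8 with the largest mean, of which 1 is not reported here. Mfsd2b was named after its values were seen. The genes and lists were chosen with earlier results of these data known. Genes were matched through the RefSeq accessions of the probes, and promoters come from RefSeq (GRCm38.p6).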

Additional observations from a re-analysis of the deposited data

Results flagged for a closer look

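Acer2, an alkaline ceramidase, had no tested probe, but its brighter probe stood well above background in 3 of 4 palmitate cultures and in 0 of 4 control cultures. The ratio of that probe averaged 0.14. The other Acer2 probe stood above background in 0 palmitate and 0 control cultures, with a mean ratio of -0.02. On every array more probes were above background in the palmitate channel than in the control channel. No test was made of Acer2. Of the 33 tested sphingolipid genes, 0 had an array far enough from the other 3 to pass Dixon's limit.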

How the results depend on the processing

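Of 494 values of single sphingolipid genes under the alternatives, 469 kept their sign and their side of the adjusted p of 0.05, 6 passed it only without replicate 1 and 19 changed sign. Alternatives that changed only the test, the pairing or the filter, or took 1 probe per named gene, left the mean ratio as it was. In these the sign could not change. Leaving out 1 array at a time gave 0 to 4319 probes and 0 to 6 members past the adjusted p, the upper values without replicate 1 (2105 probes higher and 2214 lower). It gave 1 to 5 members higher and 4 to 6 lower at an unadjusted p under 0.05, 3 to 14 of the other sphingolipid genes, and a sphingomyelin median of -0.17 to -0.13. Of all tested genes 11.55% to 35.85% were at that p, the lower share without replicate 2 and the upper without replicate 1. Probes past the adjusted p numbered 507 with arrays centred on the median (242 higher and 265 lower), 13 with the processed signals (13 higher and 0 lower), 10 by the methods' t-test (3 higher and 7 lower), 2 under the methods' cap on the coefficient of variation, and 15 with the channels unpaired, so that the pairing by array was dropped (8 higher and 7 lower). No member passed under any of these, nor with 1 probe per named gene. At an unadjusted p under 0.05, centring on the median gave 1 member higher, 2 lower and 5 other sphingolipid genes, the intensity trend with a robust prior gave 1 member higher, no filter on dim probes gave 8 lower, and the methods' t-test gave 8 members lower and 6 other genes. The share of all genes at that p was 10.27%, 23.01%, 19.97% and 19.41% under these 4 settings in turn, against 24.1% in the main processing. The median of the sphingomyelin step was -0.19 with the processed signals and -0.10 with arrays centred on the median, and that of breakdown was 0.30 and -0.12, and -0.07 with probes above background in both channels, so the breakdown step has no settled direction.

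Of the members that changed sign, Ormdl2 had the mean furthest from 0, at -0.22. With the processed signals Cerk was 0.026, S1pr3 -0.028 and Cers6 -0.17. With arrays centred on the median Sptssa was 0.010, Cerk 0.046, Asah2 -0.15, Cers6 -0.21 and Galc -0.21. By the median over a gene's probes Cerk was 0.012 and Ormdl2 0.057. With 1 array left out Sptssa lay between -0.11 and 0.031, Cerk between -0.11 and 0.028, S1pr3 between -0.025 and 0.097, Sptlc1 between -0.032 and 0.096, Cers6 between -0.040 and 0.075, Sgpp1 between -0.16 and 0.013, and Smpd4 between -0.018 and 0.26. The cause of these changes was not tested.

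With 4 arrays of 1 dye orientation, no sign-flip test of a single gene can pass 0.05, dye and treatment cannot be told apart, and all arrays shared 1 slide, so slide and scan were not tested as batches. Galc, Cers6 and Asah2 rest on dim spots in both channels. Galc had a mean log2 intensity of 7.38 and stood above background in only 2 control cultures. For Acer2 the signal sets the limit.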
